A study of Mus musculus with 9 samples.

Results

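Csf1, Csf2, Il3, Spp1, Lif and Osm encode secreted proteins through which activated T helper cells act on macrophages, granulocytes and other myeloid cells. These 6 of the 22017 gene symbols in the expression table were picked by symbol, with their levels in these libraries already known. Their differences between groups are therefore given as values with an error and without a test. Messenger RNA was sequenced from 9 cultures of wild-type C57BL/6 mouse splenic T cells, 3 in each of 3 groups. Th17-1 cells, called Th17-derived Th1 in the labels, were grown in Th17 medium and moved to Th1 medium at a second stimulation on day 7. Th1-1 cells were grown and stimulated again in Th1 medium, and Th17-17 cells were grown and stimulated again in Th17 medium. Th1 medium held 10 ng/mL IL-12 and an antibody to IL-4. Th17 medium held TGF-β at 1, IL-1β at 10 and IL-6 at 20 ng/mL, with antibodies to IFN-γ, IL-12 and IL-4. All cultures were activated for 3 days with anti-CD3 and anti-CD28, received 100 U/mL IL-2 from day 5, were stimulated on day 7 with 0.05 ug/mL of each antibody and IL-2, and gave RNA on day 10. These are bulk cultures without a reporter or sort for cytokine-producing cells, so fewer producing cells and less RNA per cell cannot be told apart.

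CSF-1 (M-CSF) keeps macrophages alive through the receptor tyrosine kinase CSF1R. GM-CSF, made from Csf2, and IL-3 share a beta receptor subunit and expand or activate granulocytes, macrophages and dendritic cells, and GM-CSF from T helper cells is needed for experimental autoimmune encephalomyelitis. Osteopontin, made from Spp1, is a phosphorylated matrix protein and cytokine that binds CD44 and integrins, and in activated T cells its gene is a known target of T-bet. LIF and oncostatin M are IL-6 family cytokines that signal through gp130, the product of Il6st, with LIFR or OSMR as partner.

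Promoter sequences are shown for Csf1, Spp1 and Lif, the members with the highest levels in any group. They run from 250 bases before to 50 bases after the RefSeq transcript start (GRCm38.p6), 5′ to 3′ on the strand of the gene. Capitals mark matches, on either strand, to the AP-1 motif TGANTCA, the NFAT core GGAAA, the RUNX motif TGTGGT and the T-box core GTGTGA.
Csf1, chr3:107760420-107760719, minus strand: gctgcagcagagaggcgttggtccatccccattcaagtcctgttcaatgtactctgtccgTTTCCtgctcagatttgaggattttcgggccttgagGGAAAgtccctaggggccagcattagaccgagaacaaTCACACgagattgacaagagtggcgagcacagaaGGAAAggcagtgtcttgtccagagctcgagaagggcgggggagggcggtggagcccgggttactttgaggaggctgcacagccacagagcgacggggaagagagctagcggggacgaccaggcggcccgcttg
Spp1, chr5:104434861-104435160, plus strand: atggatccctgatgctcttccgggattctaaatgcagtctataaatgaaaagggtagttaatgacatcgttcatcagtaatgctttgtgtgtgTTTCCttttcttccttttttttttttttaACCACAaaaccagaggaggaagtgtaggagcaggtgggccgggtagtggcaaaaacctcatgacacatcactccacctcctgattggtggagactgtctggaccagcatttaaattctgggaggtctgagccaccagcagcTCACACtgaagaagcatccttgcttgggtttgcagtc
Lif, chr11:4257318-4257617, plus strand: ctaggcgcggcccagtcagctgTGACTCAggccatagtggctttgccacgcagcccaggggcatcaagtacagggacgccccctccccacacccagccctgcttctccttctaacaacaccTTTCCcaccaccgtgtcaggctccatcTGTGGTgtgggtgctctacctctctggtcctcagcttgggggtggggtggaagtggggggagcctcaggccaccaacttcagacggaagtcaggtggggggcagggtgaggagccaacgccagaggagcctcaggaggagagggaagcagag

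The Csf1 window held 3 NFAT cores and 1 T-box core, which began 117 bases before the start. The Spp1 window shown held 1 NFAT core, 1 RUNX motif and 1 T-box core, and the T-box core lay just after the start. The window of a second Spp1 start, chr5:104435942-104436241, held 2 NFAT cores and no RUNX or T-box match. The Lif window held 1 AP-1 motif, 1 NFAT core and 1 RUNX motif. Among 32851 mouse promoter windows of the same length, the AP-1 motif was in 7.8%, the NFAT core in 61.3%, the RUNX motif in 16.8% and the T-box core in 14.5%. A search for the STAT motif TTCNNNGAA, held by 8.3% of windows, found no match in the 3 windows shown. These matches are letters in a window and were not measured as binding sites.

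Cytokine messages of T cells are often short-lived because AU-rich pentamers in the 3′ end of the message recruit decay factors. Short stretches of 3′ UTR from GENCODE M21 are shown for Csf2 and Lif, the only ones of the 6 that held the longer nonamer TTATTTATT, and each stretch contains it. Capitals mark the pentamer ATTTA.
Csf2, chromosome 11: tttaaatATTTATTTATTTATTTATTTAtt
Lif, chromosome 11: agaagcaaaggggcctttATTTAttATTTA

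The annotated 3′ UTR of Csf2 was 317 bases long and held 9 pentamers and 4 nonamers, counted with overlaps. Only 2.4% of 2042 genes with a 3′ UTR of like length had any nonamer. The 3′ UTR of Lif, 3180 bases long, held 7 pentamers and 2 nonamers, against any nonamer in 15.2% of 1980 genes of like length. Osm had 6 pentamers in 1017 bases, Csf1 had 4 in 2111 bases, Spp1 had 2 in 430 bases and Il3 had 1 in an annotated 101 bases.

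Values were deposited as FPKM, which are fragments scaled to transcript length and to the mapped fragments of each library, so levels can be set against each other between genes. They were compared as log2(FPKM + 1), which understates differences of low genes. The 9 libraries summed to between 382581 and 405985 FPKM and had between 13374 and 14063 genes above 0. Read depth is unknown. The group labels fitted their marker genes: the Th1 factor Tbx21 averaged 32.9, 85.9 and 8.51 FPKM in Th17-1, Th1-1 and Th17-17 cells, Ifng averaged 894, 1385 and 24.9 FPKM, and Il17a averaged 0.122, 0 and 4.46 FPKM. Th1-1 replicate 2 and Th17-1 replicate 3 stood farthest from their own groups, with root-mean-square deviations of 0.303 and 0.245 log2 units over 10538 genes, against 0.15 to 0.22 in the other 7 libraries. Cd8a, a marker of CD8 T cells, stood at 104, 117 and 141 FPKM in the replicate 3 libraries of Th17-1, Th1-1 and Th17-17 cells, and at 15.3 to 54.9 FPKM in the other 6. Summed over 12 markers, macrophage transcripts came to 3.62 to 7.05 FPKM in Th17-1, 3.78 to 12.4 FPKM in Th1-1 and 1.65 to 3.04 FPKM in Th17-17 libraries. Fcgr1, C1qa, C1qb and Mertk were at 0 in all 9, and the sum was led by Cd68. Sums over 6 NK cell markers were 35.9 to 98.5 FPKM, led by Klrk1. Sums over 8 neutrophil markers were 0.0761 to 35.9 FPKM, led by Ly6g, which stood at 34.7 FPKM in Th17-1 replicate 3. S100a8, S100a9, Csf3r and Elane were at 0 in all 9. Dendritic cell, B cell, mast cell and basophil, stromal and erythroid marker sums each reached at most 10.2 FPKM. The labels do not say whether the replicates came from separate mice, so errors measure the spread between these cultures.

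Of the 6 genes, 5 had at least 1 FPKM in at least 3 libraries, as did 10538 genes of the table, and Il3 did not. All 3 values of Csf1, Csf2 and Spp1 in Th17-1 cells lay above all 3 in Th17-17 cells, and the same 3 genes lay above Th17-17 in Th1-1 cells. Among all tested genes, 13.2% lay wholly above Th17-17 in Th17-1 cells and 16.4% did so in Th1-1 cells. Csf1 and Spp1 lay wholly below Th1-1 in Th17-1 cells, as did 12.9% of tested genes. Lif and Osm overlapped in every comparison. The members were chosen on such values, so nothing is read from these counts. The 3 comparisons share libraries and are not independent of each other.

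**Figure D1:**
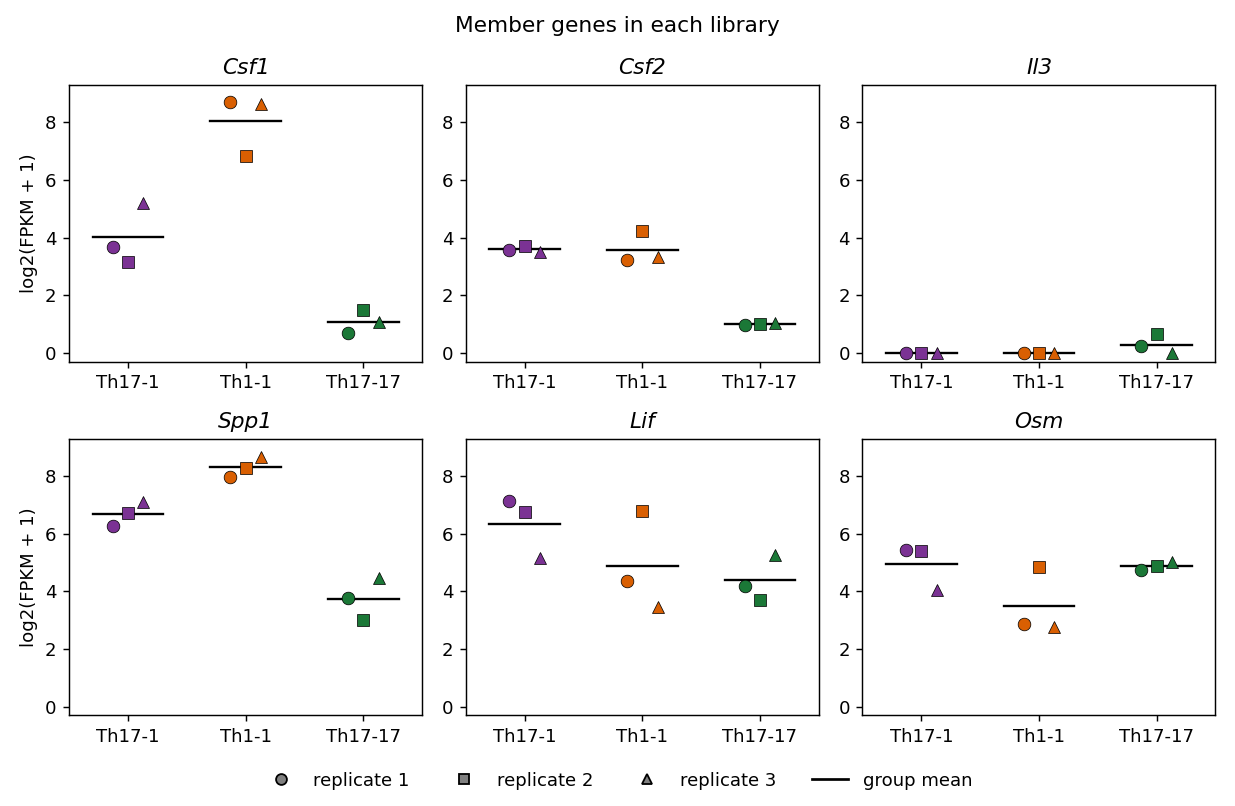
FPKM of the 6 genes on a log2(FPKM + 1) axis, with 1 point per library in Th17-1, Th1-1 and Th17-17 cells, the shape giving the replicate and the line the group mean. Csf1 and Spp1 in Th17-1 lie between Th1-1 above and Th17-17 below, Csf2 is level between Th17-1 and Th1-1, and Lif and Osm scatter within Th17-1 and Th1-1.

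Csf1 covered the widest range. It had 11.8, 7.97 and 35.6 FPKM in Th17-1 replicates 1 to 3, 416, 113 and 399.7 FPKM in Th1-1, and 0.603, 1.80 and 1.13 FPKM in Th17-17. The groups did not overlap, and in Th1-1 cells Csf1 ranked 183rd of all genes by mean FPKM. Its means were 18.4 ± 14.9 FPKM in Th17-1, 309.6 ± 170.3 in Th1-1 and 1.18 ± 0.600 in Th17-17 (SD, n = 3 each). On the log2 scale Csf1 differed by 2.92 ± 0.60 (SE) from Th17-17 and by -4.05 ± 0.60 from Th1-1 in Th17-1 cells, and by 6.97 ± 0.60 from Th17-17 in Th1-1 cells. On this scale Th17-1 cells stood at 0.419 of the way from Th17-17 to Th1-1. That position depends on the pseudocount, since the Th17-17 values lie near it. With a pseudocount of 5 the differences from Th17-17 were 1.75 in Th17-1 and 5.46 in Th1-1, and with 0.1 they were 3.67 and 7.82. Without Th17-1 replicate 3 they were 2.33 and 6.97.

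Both libraries that stood apart did so in Csf1. Th17-1 replicate 3 was 1.77 log2 units above the mean of the other 2 Th17-1 libraries, and Th1-1 replicate 2 was 1.84 below the mean of its partners, a difference of -1.84. Without Th17-1 replicate 3 the difference of Th17-1 from Th17-17 was 2.33, and without Th1-1 replicate 2 that of Th17-1 from Th1-1 was -4.66. Cd8a had 17.4, 27.4 and 104 FPKM in Th17-1 replicates 1 to 3 and 15.3, 19.0 and 117 FPKM in Th1-1. Whether it has a part in the Csf1 values was not tested. With replicate 3 left out of all groups the 3 Csf1 differences were 2.34, -4.35 and 6.69. Cd68, present in macrophages and also in other leukocytes, had 8.41, 3.37 and 11.4 FPKM in Th1-1 replicates 1 to 3, lowest in replicate 2 as Csf1 was, and whether it has a part in the Csf1 values was not tested. Csf1r, the CSF-1 receptor gene of macrophages, was at 0.0109 FPKM or less in all 9 libraries.

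Csf2 did not separate the cells that ended in Th1 medium. It had 11.0, 12.0 and 10.4 FPKM in Th17-1, 8.30, 17.6 and 9.10 FPKM in Th1-1, and 0.965, 1.02 and 1.06 FPKM in Th17-17. The Th17-1 and Th1-1 values overlapped, and both groups lay above Th17-17. The difference was 2.59 ± 0.23 (SE) log2 units from Th17-17 in Th17-1 cells, 0.01 ± 0.23 between Th17-1 and Th1-1, and 2.58 ± 0.23 from Th17-17 in Th1-1 cells. Leaving out 1 library at a time moved the difference between Th17-1 and Th1-1 over -0.18 to 0.32. Csf2 had the smallest within-group spread of the 5, with an SD of 0.322 log2 units, though 85.5% of tested genes had a smaller one and the median gene had 0.171. At 11 to 12 FPKM its level was near the middle of the tested genes, 46.1% of which were lower in Th17-1 cells.

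Il3, the gene next to Csf2, was listed at 0 in all 3 Th17-1 and all 3 Th1-1 libraries. In Th17-17 cells it had 0.188, 0.566 and 0 FPKM. No fold is given. The Csf2 and Il3 genes lie in the same direction on chromosome 11, at chr11:54247271-54249667 and chr11:54265303-54267277 (GRCm38, minus strand), with 15.6 kb and no protein-coding gene between them.

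Spp1 was abundant in cells that ended in Th1 medium. It had 76.1, 104.7 and 136.4 FPKM in Th17-1, 248.7, 310.2 and 402.7 FPKM in Th1-1, and 12.5, 7.01 and 20.9 FPKM in Th17-17. The 3 groups did not overlap. Means were 105.7 ± 30.2, 320.5 ± 77.5 and 13.5 ± 6.98 FPKM (SD, n = 3 each) in Th17-1, Th1-1 and Th17-17. The difference was 2.96 ± 0.35 (SE) log2 units from Th17-17 in Th17-1 cells, -1.60 ± 0.35 from Th1-1 in Th17-1 cells and 4.56 ± 0.35 from Th17-17 in Th1-1 cells. Th17-1 cells stood at 0.649 of the way from Th17-17 to Th1-1. Th1-1 replicate 2, low in Csf1, was 0.03 below its partners in Spp1 (-0.03), and without it the difference of Th17-1 from Th1-1 was -1.61. Spp1 was 3.84 to 13.1 times Csf1 in Th17-1 libraries, 0.598, 2.74 and 1.01 times Csf1 in Th1-1 replicates 1 to 3, and 3.89 to 20.8 times Csf1 in Th17-17 libraries.

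**Figure D2:**
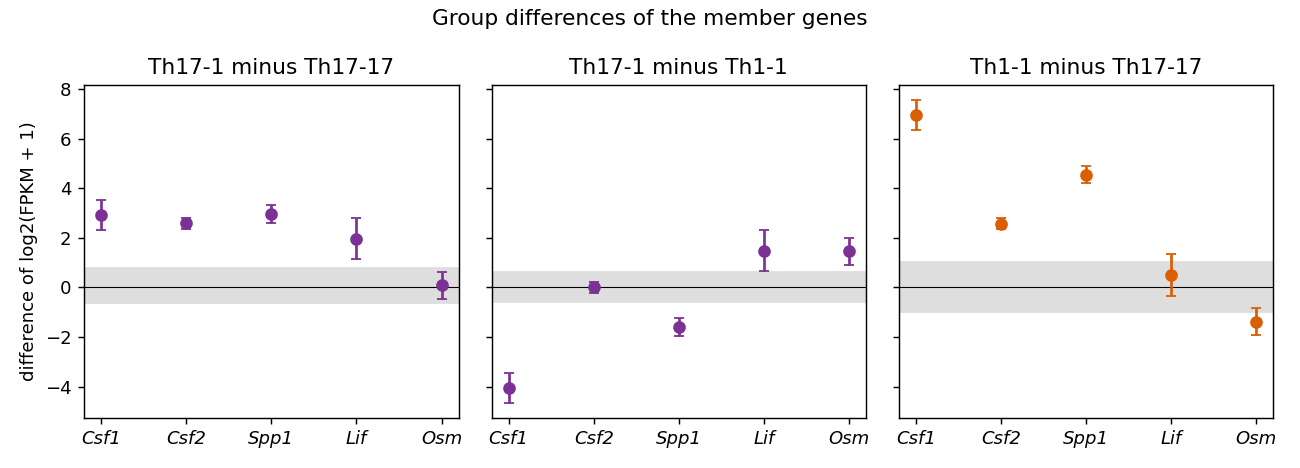
Differences of log2(FPKM + 1) between groups for the 5 genes that passed the filter, as points with standard errors from the fit across all genes, and the grey band spanning the middle 90% of tested genes. Csf1 in Th1-1 minus Th17-17 is the largest of the 15 differences at 6.97, and Csf2 in Th17-1 minus Th1-1 is 0.01.

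Lif was highest in 3 libraries from 2 groups. It had 139.3, 107.5 and 34.7 FPKM in Th17-1, 19.7, 110.6 and 9.91 FPKM in Th1-1, and 17.0, 12.0 and 37.2 FPKM in Th17-17. The groups overlapped in each comparison. Means were 93.8 ± 53.6, 46.7 ± 55.5 and 22.1 ± 13.3 FPKM (SD, n = 3 each) in Th17-1, Th1-1 and Th17-17. The difference was 1.97 ± 0.84 (SE) log2 units between Th17-1 and Th17-17, 1.48 ± 0.84 between Th17-1 and Th1-1, and 0.50 ± 0.84 between Th1-1 and Th17-17. Its within-group SD of 1.26 log2 units exceeded that of 99.9% of tested genes. Th1-1 replicate 2 carried the Th1-1 mean: without it Lif was lower in Th1-1 than in Th17-17, at -0.47, and the difference of Th17-1 from Th1-1 was 2.44. Without Th17-1 replicate 3 the difference of Th17-1 from Th17-17 was 2.57. With replicate 3 left out of all groups, where Cd8a was high, the 3 Lif differences were 3.01, 1.36 and 1.65.

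Osm had 42.0, 41.7 and 15.5 FPKM in Th17-1, 6.37, 27.9 and 5.87 FPKM in Th1-1, and 25.7, 28.7 and 31.7 FPKM in Th17-17. The Th17-17 values lay close together, and the low and high libraries within Th17-1 and Th1-1 were those of Lif. The difference was 0.08 ± 0.55 (SE) log2 units between Th17-1 and Th17-17, 1.46 ± 0.55 between Th17-1 and Th1-1, and -1.38 ± 0.55 between Th1-1 and Th17-17. Without Th1-1 replicate 2 the last of these was -2.06, and without Th17-1 replicate 3 the first was 0.53. With replicate 3 left out of all groups the 3 Osm differences were 0.61, 1.55 and -0.95. Lif was 2.23 to 3.32 times Osm in Th17-1 libraries, 1.69 to 3.96 times in Th1-1 and 0.420 to 1.17 times in Th17-17. The lowest ratio in cells that ended in Th1 medium, 1.69, stood above the highest in Th17-17 cells, 1.17. The pair was chosen with its values known. How many gene pairs have ratios apart in this way was not measured, so nothing is read from it. Lif and Osm lie head to tail on chromosome 11, at chr11:4257557-4272514 and chr11:4236420-4241026 (GRCm38, plus strand), 16.5 kb apart with no protein-coding gene between them.

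Within Th17-1 and Th1-1, Csf1 moved opposite to Lif and Osm. In Th1-1 replicate 2, Lif was 2.89, Osm 2.02 and Csf2 0.94 log2 units above the mean of the other 2 libraries, Csf1 differed by -1.84 and Spp1 by -0.03. In Th17-1 replicate 3, Lif differed by -1.79, Osm by -1.37 and Csf2 by -0.13, while Csf1 was 1.77 and Spp1 0.61 above. The libraries high in Lif and Osm were thus the low ones for Csf1 within both groups. Within Th17-17 this did not hold: Lif deviated from its group mean by -0.20, -0.67 and 0.88, Spp1 by 0.02, -0.74 and 0.71, and Csf1 by -0.41, 0.40 and 0.01. Lta, which encodes lymphotoxin and was chosen after its values were seen, had 258, 237 and 69.7 FPKM in Th17-1 and 97.0, 707 and 100.4 FPKM in Th1-1. Its low Th17-1 library and its high Th1-1 library were those of Lif. Socs2 and Cish, feedback genes induced by STAT5, differed by 1.27 and 0.89 in Th1-1 replicate 2 and by -1.47 and -0.74 in Th17-1 replicate 3. In Th1-1 replicate 2, 1.48% and 6.0% of tested genes were at least as far out. Both come from a list of 14 feedback genes chosen with earlier results known. In that list Socs1, Socs4, Socs7, Pim2, Pim3, Bcl2l1 and Il2ra were also highest in the first library and lowest in the second within their groups. Pim1 and Ptpn2 were the reverse, and Socs3, Socs5 and Socs6 showed neither pattern. Ccl5, a T-bet target chemokine gene, differed by -1.47 in Th1-1 replicate 2 and by 1.04 in Th17-1 replicate 3, the direction of Csf1. It was also the gene of nearest profile to Csf1 over these same libraries, so this direction is no separate support. Cd8a, high in Th17-1 replicate 3, was at 19.0 FPKM in Th1-1 replicate 2, and its part in these patterns was not tested.

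**Figure D3:**
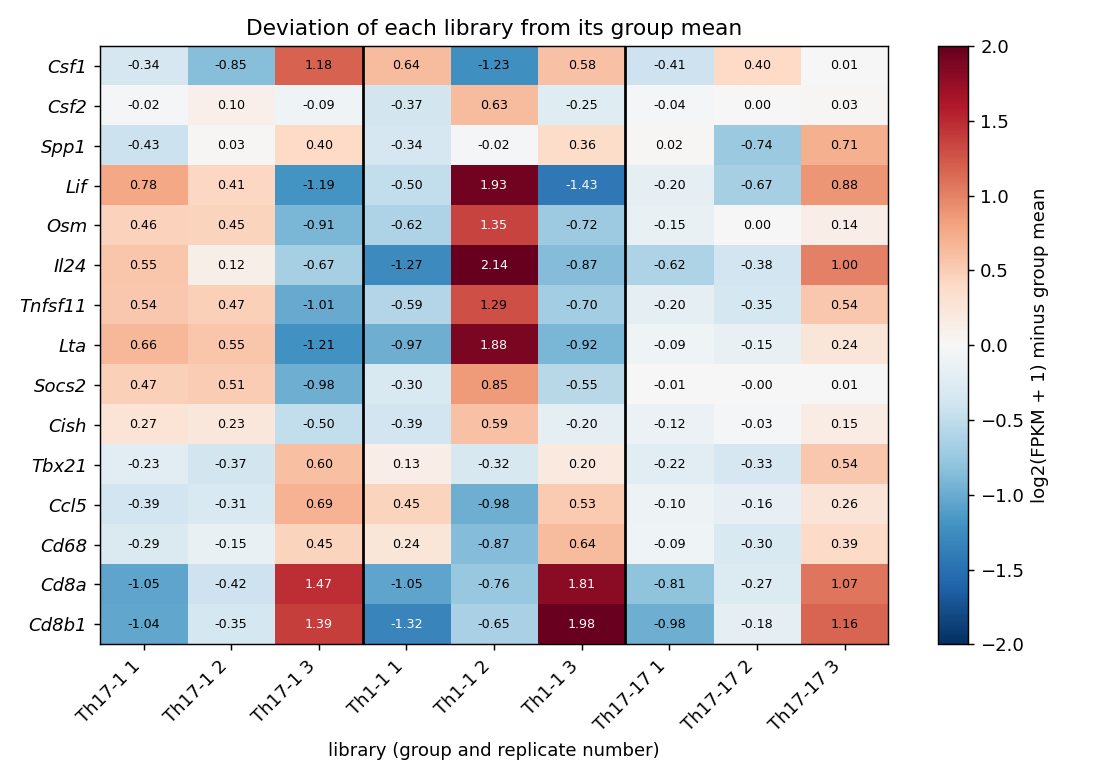
Deviation of log2(FPKM + 1) from the group mean in each of the 9 libraries for 5 members and 10 other genes, from blue (below) to red (above). In Th1-1 replicate 2, Lif, Osm, Il24, Tnfsf11 and Lta are 1.29 to 2.14 above their group mean and Csf1 is at -1.23, and Th17-1 replicate 3 shows the opposite signs. The 10 other genes were chosen with earlier results of these data known. Il24, Tnfsf11 and Ccl5 are also among the nearest profiles to Lif, Osm and Csf1 over these same libraries, so their likeness is no separate support.

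Genes of like profile were taken as the 3 with the smallest root-mean-square difference from each member over the 9 libraries, after each gene's log2(FPKM + 1) was centred on its own mean, among 7930 genes. For Csf1, whose own profile had a root-mean-square of 2.95, none came close: the nearest was Ccl5 at 0.979, followed by the granzyme genes Gzme at 1.09 and Gzmd at 1.09. Ccl5 averaged 109.8, 411 and 6.95 FPKM in Th17-1, Th1-1 and Th17-17. For Csf2 the nearest was Il2ra, the alpha chain of the IL-2 receptor, at 0.279, with 424, 471 and 94.9 FPKM, then Eps8 at 0.289 and Cetn4 at 0.314. Csf2 in Th17-17, at 0.965 to 1.06 FPKM, lies at the pseudocount of 1, which shrinks its differences more than those of Il2ra. Other pseudocounts were not tried for these profiles. For Spp1 the nearest genes were Serpine2, a protease inhibitor gene, at 0.310, Il1rl1, which encodes the IL-33 receptor ST2, at 0.356, and Lilr4b at 0.412. Serpine2 averaged 33.3, 106.6 and 3.63 FPKM. For Lif they were Tmem158 at 0.569, the cytokine gene Il24 at 0.580 and the transglutaminase gene Tgm2 at 0.640. For Osm they were Tnfsf11, which encodes the osteoclast factor RANKL, at 0.327, Lsm7 at 0.366 and Adpgk at 0.370. Among the members, Csf2 and Spp1 were closest at 0.994, then Lif and Osm at 1.01.

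Of 16 receptor and binding partner genes of these cytokines, 9 were tested. The test was limma on log2(FPKM + 1) over all tested genes, with Benjamini-Hochberg adjusted p below 0.05. In Th17-1 against Th17-17, 3 rose and 1 fell, where 6.43% of all tested genes rose and 9.49% fell (median difference of the 9 genes -0.09, of all tested genes -0.12). In Th17-1 against Th1-1, 3 rose and none fell, where 5.67% of all rose and 4.81% fell (medians -0.23 and 0.05), and 4 of the 9 were lower at an unadjusted limma p below 0.05. In Th1-1 against Th17-17, 3 rose and 2 fell, where 14.0% of all rose and 28.9% fell (medians 0.40 and -0.17). Csf2rb, the beta subunit shared by GM-CSF and IL-3, reached 0.409 FPKM, and the gp130 partners Lifr and Osmr reached 0.142 and 0.0283 FPKM in their highest libraries. The alpha chains were higher: Il3ra averaged 10.8, 11.2 and 8.48 FPKM and Csf2ra 2.82, 4.63 and 3.30 FPKM in Th17-1, Th1-1 and Th17-17, and neither passed the test in any comparison.

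Without Th17-17 replicate 1 or 2, 2 of the 9 rose and none fell in Th17-1 against Th17-17, and with replicate 3 of all groups left out 1 rose and 1 fell in Th17-1 against Th1-1. Il6st, which encodes gp130, had 42.0, 33.7 and 42.7 FPKM in Th17-1, 23.9, 13.8 and 14.3 FPKM in Th1-1, and 7.84, 8.36 and 6.17 FPKM in Th17-17. The 3 groups did not overlap, and Th17-1 cells were the highest. Il6st rose by 2.26 ± 0.20 (SE) log2 units in Th17-1 against Th17-17 (limma adjusted p = 0.000256), by 1.18 ± 0.20 in Th17-1 against Th1-1 (limma adjusted p = 0.00943) and by 1.08 ± 0.20 in Th1-1 against Th17-17 (limma adjusted p = 0.00347). The call against Th1-1 was lost with replicate 3 of all groups left out (limma adjusted p = 0.0799). Cd44, the osteopontin and hyaluronan receptor, averaged 59.3, 69.9 and 24.9 FPKM in Th17-1, Th1-1 and Th17-17. It rose by 1.23 in Th17-1 and by 1.46 in Th1-1 against Th17-17 (limma adjusted p = 0.0016 and 0.000306).

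Among integrin genes, Itga4, a subunit of VLA-4, averaged 11.5, 4.04 and 26.6 FPKM in Th17-1, Th1-1 and Th17-17. It rose by 1.32 in Th17-1 against Th1-1 and fell by 2.44 in Th1-1 against Th17-17 (limma adjusted p = 0.008 and 0.000107). In Th17-1 against Th17-17 it fell by 1.12 (limma adjusted p = 0.0104), a call lost without Th17-17 replicate 1 or replicate 2 (limma adjusted p = 0.0511 and 0.0524). Itgb3, a subunit of the vitronectin receptor, averaged 11.8, 18.9 and 5.94 FPKM and rose by 1.49 in Th1-1 against Th17-17 (limma adjusted p = 0.000869). Its rise of 0.87 in Th17-1 against Th17-17 was lost without any of 5 libraries, Th17-1 replicate 1 or 3 or any Th17-17 replicate (limma adjusted p = 0.0531 to 0.0882).

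**Figure D4:**
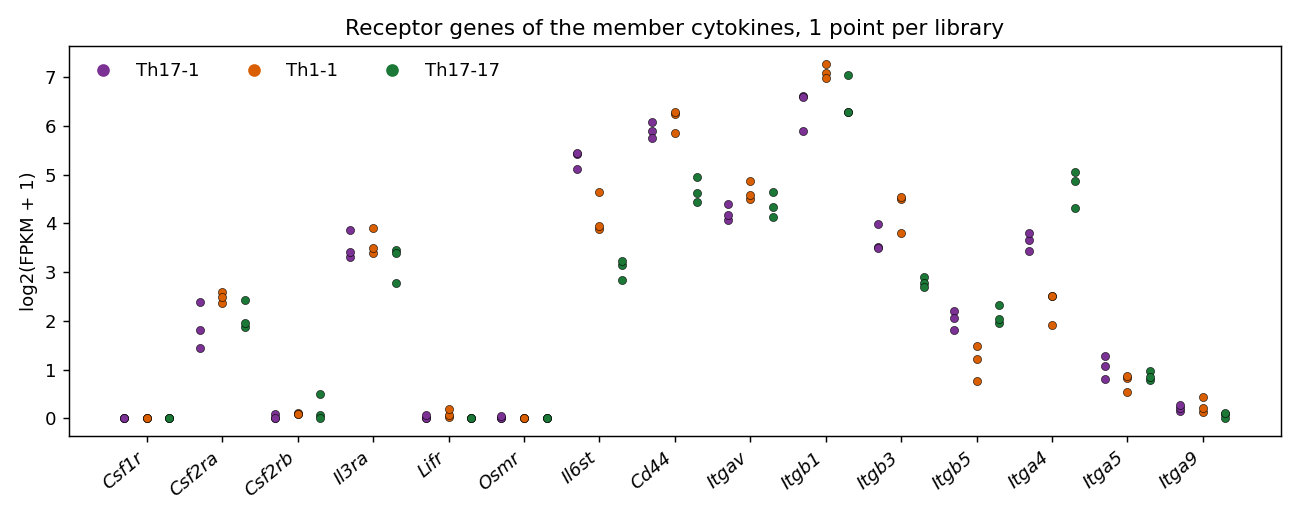
log2(FPKM + 1) of 15 receptor and integrin genes of the member cytokines in each library, with Th17-1 left, Th1-1 in the middle and Th17-17 right within each gene. Il6st averages 39.5 FPKM in Th17-1, 17.3 in Th1-1 and 7.46 in Th17-17, and Csf1r, Lifr and Osmr lie at the bottom of the axis.

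Other haematopoietic and IL-6 family ligands formed a list of 17, of which 6 were tested. Against Th17-17, none rose and 1 fell in Th17-1, in Th17-1 against Th1-1 none of the 6 was called, and in Th1-1 against Th17-17 1 rose and 3 fell (medians -0.16, -0.07 and -0.43). Shares of all tested genes that rose and fell were 6.43% and 9.49%, 5.67% and 4.81%, and 14.0% and 28.9% (medians -0.12, 0.05 and -0.17). At an unadjusted limma p below 0.05, 1 of the 6 was higher in Th17-1 in each of its comparisons. Without Th17-17 replicate 1, 1 rose and 1 fell in Th1-1 against Th17-17. In Th17-1 against Th1-1, 1 fell without Th1-1 replicate 2 and 1 rose without Th17-1 replicate 3. Against Th17-17, 1 rose and 1 fell in Th17-1 without Th1-1 replicate 1 or 2. Csf3, Il6, Il11 and Il34, ligands related to the members, reached at most 0.109, 0.112, 0.162 and 0.374 FPKM in any library. Clcf1, an IL-6 family ligand that signals through gp130, LIFR and the CNTF receptor, averaged 13.6, 15.4 and 30.9 FPKM in Th17-1, Th1-1 and Th17-17. It fell by 1.10 in Th17-1 and by 0.93 in Th1-1 against Th17-17 (limma adjusted p = 0.0072 and 0.00629). Ebi3, a subunit of IL-27 and IL-35, had means of 7.83 FPKM in Th1-1 against 1.83 FPKM in Th17-17 cells and rose by 1.55 (limma adjusted p = 0.0048).

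Of 19 other T helper cytokine and chemokine genes, 16 were tested: 7 rose and 3 fell in Th17-1 against Th17-17, 2 rose and 3 fell in Th17-1 against Th1-1, and 8 rose and 2 fell in Th1-1 against Th17-17 (medians 0.62, -0.13 and 0.40). Among all tested genes 6.43% rose and 9.49% fell, 5.67% rose and 4.81% fell, and 14.0% rose and 28.9% fell (medians -0.12, 0.05 and -0.17). Without Th17-1 replicate 1 or 2 or Th1-1 replicate 3, 1 gene of the list rose and 1 fell in Th17-1 against Th1-1, since the calls of Tnf, Ccl5 and Tnfsf8 were lost (limma adjusted p up to 0.138). Without any 1 Th17-17 library, 1 fell in Th17-1 and none fell in Th1-1 against Th17-17. Il17a and Il17f reached 1 FPKM only in the 3 Th17-17 libraries. Any such omission therefore took them below the filter, and their falls were not tested there. Il21, a cytokine for B cells and T cells, averaged 31.0, 1.21 and 0.569 FPKM in Th17-1, Th1-1 and Th17-17 and rose by 4.29 in Th17-1 against Th17-17 and by 3.81 against Th1-1 (limma adjusted p = 5.03e-05 and 0.000137). Ccl3 and Ccl4, chemokine genes whose products attract myeloid cells, averaged 61.3 and 75.0 FPKM in Th17-1, 107 and 106.4 FPKM in Th1-1, and 11.9 and 11.8 FPKM in Th17-17. In Th17-1 against Th17-17 both rose, by 2.41 and 2.63 (limma adjusted p = 0.00196 and 0.000205). Il10, an anti-inflammatory cytokine gene, had like means in Th17-1 and Th1-1, as Csf2 did, with 94.6, 93.9 and 12.9 FPKM in Th17-1, Th1-1 and Th17-17. It rose by 2.85 in Th17-1 and 2.81 in Th1-1 against Th17-17 (limma adjusted p = 0.00025 and 0.000108). Xcl1 averaged 8.26, 36.0 and 57.2 FPKM and fell by 2.69 in Th17-1 against Th17-17 (limma adjusted p = 0.000741).

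Of 30 genes for transcription factors known at cytokine promoters, 29 were tested. In Th17-1 against Th17-17, 10 rose and 1 fell, where 6.43% of all tested genes rose and 9.49% fell (medians 0.36 and -0.12). In Th17-1 against Th1-1, 1 rose and 2 fell, where 5.67% of all rose and 4.81% fell (medians -0.07 and 0.05). In Th1-1 against Th17-17, 14 rose and 3 fell, where 14.0% of all rose and 28.9% fell (medians 0.51 and -0.17). Without Th17-17 replicate 1 or 2, 7 rose and none fell in Th17-1 against Th17-17. In Th17-1 against Th1-1 none fell without Th17-1 replicate 1 or 2 or Th1-1 replicate 1 or 3, 4 fell without Th17-1 replicate 3, and 3 rose without Th1-1 replicate 2. The AP-1 and BATF family genes Jun, Junb, Batf and Batf3 rose in both groups against Th17-17. Batf3 averaged 19.1, 17.2 and 1.85 FPKM in Th17-1, Th1-1 and Th17-17 and rose by 2.90 in Th17-1 against Th17-17 (limma adjusted p = 0.00082). Jun averaged 86.6, 49.4 and 18.7 FPKM and rose by 2.16 (limma adjusted p = 0.00107). Irf4, the partner of BATF, averaged 22.2, 25.02 and 10.9 FPKM and rose by 0.98 (limma adjusted p = 0.00384).

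Tbx21 and Bhlhe40 had the order of Csf1 and Spp1. Tbx21, the T-bet gene, had 26.6, 24.1 and 48.1 FPKM in Th17-1, 92.9, 67.5 and 97.3 FPKM in Th1-1, and 6.88, 6.30 and 12.3 FPKM in Th17-17. It rose by 1.82 ± 0.30 (SE) in Th17-1 and by 3.23 ± 0.30 in Th1-1 against Th17-17 (limma adjusted p = 0.00435 and 0.000117). It fell by 1.40 ± 0.30 in Th17-1 against Th1-1 (limma adjusted p = 0.0205), a call lost without Th1-1 replicate 1 or 3 or Th17-1 replicate 1 or 2 (limma adjusted p = 0.0639 to 0.0898). Bhlhe40, needed for GM-CSF production by mouse T helper cells, had 95.2, 82.4 and 135 FPKM in Th17-1, 254, 143 and 232 FPKM in Th1-1, and 41.3, 38.3 and 49.0 FPKM in Th17-17. It rose by 1.24 in Th17-1 and by 2.23 in Th1-1 against Th17-17 (limma adjusted p = 0.00914 and 0.000251). Its fall of 0.99 in Th17-1 against Th1-1 was lost without any of 6 libraries, replicate 1 or 3 of Th1-1 and replicates 1 or 2 of Th17-1 and of Th17-17 (limma adjusted p = 0.0513 to 0.133).

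Of 14 feedback genes induced by STAT proteins, all were tested. Against Th17-17, 4 rose and none fell in Th17-1, in Th17-1 against Th1-1 1 rose and none fell, and in Th1-1 against Th17-17 5 rose and 2 fell (medians 0.17, 0.08 and -0.14). Shares of all tested genes that rose and fell were 6.43% and 9.49%, 5.67% and 4.81%, and 14.0% and 28.9% (medians -0.12, 0.05 and -0.17). At an unadjusted limma p below 0.05, 1 of the 14 was lower in Th17-1 against Th17-17 and 0 in Th17-1 against Th1-1. Without Th1-1 replicate 2, 2 rose in Th17-1 against Th1-1 and 4 fell in Th1-1 against Th17-17, and with replicate 3 of all groups left out 3 rose and 1 fell in Th1-1 against Th17-17. Il2ra and the kinase gene Pim2 rose by 2.17 and 1.68 in Th17-1 against Th17-17 (limma adjusted p = 0.000154 and 0.000266) and by 2.31 and 1.94 in Th1-1 against Th17-17 (limma adjusted p = 4.25e-05 and 5.66e-05). Socs3, the feedback inhibitor of gp130 and STAT3 signalling, had 71.9, 68.9 and 64.5 FPKM in Th17-1, 20.0, 18.3 and 21.3 FPKM in Th1-1, and 69.0, 77.4 and 45.2 FPKM in Th17-17. Th1-1 cells were low and Th17-1 cells overlapped Th17-17. Socs3 rose by 1.74 ± 0.17 (SE) in Th17-1 against Th1-1 and fell by 1.60 ± 0.17 in Th1-1 against Th17-17 (limma adjusted p = 0.000904 and 0.000272).

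Of 14 genes for AU-rich or stem-loop decay factors, 2 rose and 1 fell in Th17-1 against Th17-17, 3 rose and none fell in Th17-1 against Th1-1, and none rose and 4 fell in Th1-1 against Th17-17 (medians -0.07, 0.17 and -0.26). The counts of none were also 0 at an unadjusted limma p below 0.05. Among all tested genes 6.43% rose and 9.49% fell, 5.67% rose and 4.81% fell, and 14.0% rose and 28.9% fell (medians -0.12, 0.05 and -0.17). The 4 that fell in Th1-1 stand beside 28.9% of all tested genes, a like share of the 14, and 2 fell without Th17-17 replicate 2. In Th17-1 against Th1-1, Zfp36l1 and Hnrnpd were lost without Th17-1 replicate 1 or 2, Th1-1 replicate 3 or Th17-17 replicate 2 (limma adjusted p up to 0.154), so that 1 rose. Against Th17-17, none rose in Th17-1 without Th17-1 replicate 1 or Th17-17 replicate 1, 1 rose without Th17-1 replicate 3 or Th17-17 replicate 2 or 3, and 3 rose and 2 fell without Th1-1 replicate 2. Zfp36, which encodes tristetraprolin, had 20.0, 21.7 and 31.1 FPKM in Th17-1, 17.9, 20.1 and 21.8 FPKM in Th1-1, and 20.4, 23.0 and 24.8 FPKM in Th17-17, and it did not pass the test. Arid5a, whose product stabilises some cytokine messages, averaged 65.6, 37.9 and 46.5 FPKM and rose by 0.78 in Th17-1 against Th1-1 (limma adjusted p = 0.00348). Tial1, an AU-binding protein gene, averaged 24.3, 21.4 and 35.4 FPKM and fell by 0.70 in Th1-1 against Th17-17 (limma adjusted p = 0.000788).

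A list of 11 genes held proteases and modifiers that act on membrane-bound cytokines or osteopontin, and also F2r, a thrombin receptor gene. Of these, 8 were tested. Against Th17-17, 4 rose and none fell in Th17-1, in Th17-1 against Th1-1 none rose and 2 fell, and in Th1-1 against Th17-17 5 rose and 1 fell (medians 0.46, -0.36 and 0.96). Shares of all tested genes that rose and fell were 6.43% and 9.49%, 5.67% and 4.81%, and 14.0% and 28.9% (medians -0.12, 0.05 and -0.17). At an unadjusted limma p below 0.05, 2 of the 8 were lower in Th17-1 against Th17-17 and 0 higher in Th17-1 against Th1-1. The falls in Th17-1 against Th1-1 were of Furin and F2r, so only Furin was a protease gene. The F2r call was lost without any of 7 libraries, all but Th17-1 replicate 3 and Th17-17 replicate 3 (limma adjusted p = 0.0571 to 0.167), and neither call remained without Th17-1 replicate 1 or 2 or Th1-1 replicate 3. Against Th17-17, 2 rose in Th17-1 without Th17-1 replicate 1 or Th17-17 replicate 1 or 2. Furin, a proprotein convertase gene, had 556, 518 and 639 FPKM in Th17-1, 1020.0, 779 and 999 FPKM in Th1-1, and 52.0, 64.2 and 56.8 FPKM in Th17-17. It rose by 3.29 in Th17-1 and by 3.99 in Th1-1 against Th17-17 (limma adjusted p = 1.15e-05 and 2.02e-06). Its fall of 0.70 in Th17-1 against Th1-1 (limma adjusted p = 0.0126) was lost without Th1-1 replicate 3 or Th17-1 replicate 1 or 2 (limma adjusted p = 0.0569 to 0.0643). Adam8, a metalloprotease gene, averaged 131, 215 and 35.8 FPKM and rose by 1.90 in Th17-1 and 2.60 in Th1-1 against Th17-17 (limma adjusted p = 0.00512 and 0.000472). Adam17, whose product sheds membrane-bound cytokines, had means of 28.0 FPKM in Th1-1 against 18.5 FPKM in Th17-17 cells and rose by 0.56 (limma adjusted p = 0.00994), a call lost with replicate 3 of all groups left out (limma adjusted p = 0.0579).

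The genes beside the members differed in how far their values ran with those of the members. Next to Csf1 (chr3:107741048-107760469, GRCm38), Ahcyl1 had 34.2, 32.8 and 35.6 FPKM in Th17-1, 60.7, 44.0 and 56.4 FPKM in Th1-1, and 32.1, 30.6 and 31.7 FPKM in Th17-17. It rose by 0.74 in Th1-1 against Th17-17 (limma adjusted p = 0.00146), and Th1-1 replicate 2 was its lowest Th1-1 library, as for Csf1. Next to Spp1 (chr5:104435118-104441050), Pkd2 averaged 0.741, 2.34 and 1.09 FPKM, rose by 0.69 in Th1-1 against Th17-17 and fell by 0.94 in Th17-1 against Th1-1 (limma adjusted p = 0.00639 and 0.00633). On the other side of Spp1 the bone matrix genes Mepe, Ibsp and Dmp1 were listed at 0 in all 9 libraries. Near Csf2 and Il3, Pdlim4 averaged 1.11, 0.185 and 4.57 FPKM and fell by 1.37 in Th17-1 and by 2.20 in Th1-1 against Th17-17 (limma adjusted p = 0.00499 and 0.000229), opposite to Csf2. Acsl6, on the far side of Il3, was too low to test, with 1.75, 1.48 and 0.274 FPKM in Th17-17 and at most 0.123 FPKM in the other groups. Near Lif and Osm, Castor1, Tbc1d10a and Mtmr3 did not pass the test in any comparison. Lif and Osm are given without a test, so this does not set these neighbours apart from them. Castor1 had 28.5, 24.7 and 18.3 FPKM in Th17-1, 14.8, 17.0 and 8.11 FPKM in Th1-1, and 17.55, 18.53 and 12.9 FPKM in Th17-17. Its lowest Th17-1 library and its highest Th1-1 library were those of Lif and Osm. The same held for Tbc1d10a, while Mtmr3 was highest in Th1-1 replicate 1. Sf3a1, a splicing factor gene on the Osm side, averaged 29.7, 26.7 and 35.0 FPKM in Th17-1, Th1-1 and Th17-17 and fell by 0.38 in Th1-1 against Th17-17 (limma adjusted p = 0.0259). That call was lost with median-ratio scaling, with replicate 3 of all groups left out, and without Th1-1 replicate 1 or 3 or Th17-17 replicate 2 or 3 (limma adjusted p = 0.0509 to 0.138).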

How the data were processed

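The authors deposited FPKM values per gene symbol. Per the submitters' processing notes, mm10, HISAT2 and DESeq2 were used; versions, roles, the annotation and strandedness are not given in these sources. Reads of overlapping or near-identical genes (Gzme and Gzmd, for example) may be split or shared. The series text has mg/mL where the labels' protocols have ug/mL for the first antibody doses, so these are not printed. Groups and replicate numbers came from sample titles. Values were taken as log2(FPKM + 1). The 10538 genes that reached 1 FPKM in 3 or more libraries were fitted with limma 3.58.1 (R 4.3.3) with a mean-variance trend over all 9 libraries, and p-values of both directions were adjusted by Benjamini-Hochberg at 0.05. Standard errors of the members came from this fit. No read counts could be recovered: the commonest ratio between libraries covered at most 1.13% of values below 0.5 FPKM (tolerance 0.01 log2 units).

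The members and all gene lists were chosen with earlier results of these data known. From each list up to 5 called genes per direction, receptor subunits and transcription factors were named, and some genes under this rule are left out of the text. Neighbours were the 3 nearest protein-coding genes on each side. Promoters were matched by symbol for 5 of 6 members (RefSeq, GRCm38.p6), and 3′ UTRs and positions came from GENCODE M21 (GRCm38), where 21962 symbols were found. The fit was tested on simulated data. Alternatives were pseudocounts of 0.1 and 5, other filters, 3 scalings (equal sums, median ratio, quantile), a replicate block, fits of 2 groups and the omission of libraries. Python 3.11.15, pandas 2.3.3 and matplotlib 3.10.9 were used.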

Additional observations from a re-analysis of the deposited data

How the results depend on the processing

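The number of called genes depended on the libraries. Leaving out 1 library at a time gave 681 to 2342 calls in Th17-1 against Th17-17 (1678 with all libraries), 315 to 1861 in Th17-1 against Th1-1 (1104) and 3013 to 5400 in Th1-1 against Th17-17 (4526). The highest count in each came without Th1-1 replicate 2. Without replicate 3 of all groups the counts were 1036, 596 and 3067. With only the 2 compared groups in the fit, Th17-1 against Th1-1 had 703 calls. Scaling moved the balance of directions: 40.4% of calls in Th17-1 against Th17-17 were higher, against 63.0% with median-ratio scaling and 55.2% with quantile normalization, and in Th1-1 against Th17-17 these were 32.7%, 53.8% and 45.6%. Median-ratio scaling moved the median of all genes from -0.12 to -0.01 (log2) in Th17-1 against Th17-17 and from -0.17 to -0.02 in Th1-1 against Th17-17.

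Pseudocounts moved the low members. Csf1 was 1.75 above Th17-17 in Th17-1 cells and 5.46 in Th1-1 cells with a pseudocount of 5. Csf2 was 3.33 and 3.32 above Th17-17 in Th17-1 and Th1-1 cells with a pseudocount of 0.1, and 1.42 and 1.43 with 5. Leaving out 1 library moved Csf1 over 2.33 to 3.35 in Th17-1 against Th17-17, -4.66 to -3.63 in Th17-1 against Th1-1 and 6.65 to 7.59 in Th1-1 against Th17-17, Spp1 over 2.59 to 3.32, -1.80 to -1.39 and 4.20 to 4.92, Lif over 1.58 to 2.57, 0.76 to 2.44 and -0.47 to 1.21, and Osm over -0.16 to 0.53, 1.10 to 2.13 and -2.06 to -1.02. Lck, a T cell marker at 0.00 ± 0.08 (SE) in Th1-1 against Th17-17, was at -0.26 with quantile normalization.

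Whether replicate numbers mark shared mice or days is not given. Deviations of libraries with the same number correlated at -0.178 to 0.659, not all above 0.1, and those of other pairs at -0.646 to 0.459, so the numbers were not taken to pair the samples. Numbers 2 and 3 correlated between Th17-1 and Th1-1 at 0.537 and 0.659, and Cd8a was highest in replicate 3 of each group. With the replicate block there were 1681, 1255 and 4452 calls. Depth is unknown, so no counting error can be given for values near 0.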
